A study of Mus musculus with 24 samples.

Results

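The comparison described here is SmcHD1 knockout (KO) against wild type (WT) after 9 days of neural differentiation, in genes outside the X and Y chromosomes. Members were all such genes with a mean level of at least 1 FPKM over the 6 day 9 libraries, where FPKM counts the fragments of a transcript relative to its length and to all mapped fragments of the library. Of 23119 genes listed, 22028 lay outside X and Y and 11835 met this rule. The estimate for Serbp1 had failed, and the other 11834 were tested.

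The series holds 24 RNA-seq libraries in 8 groups of 3, WT and KO in mESCs (mouse embryonic stem cells), at day 7, at day 9 and in NSCs (neural stem cells). All came from JB4/EI7HZ2, a female mESC line from a JF1 x B6 cross, whose mESC medium held G418 and Zeocin so that both X chromosomes were kept. KO cells were made with CRISPR–Cas9 and a guide to the ATPase domain of Smchd1, and carried premature stop codons on both alleles. For day 9 both genotypes were passed through an epiblast-like step and grown as floating aggregates (embryoid bodies) in GMEM with KSR, so each library is bulk RNA of all cells in such aggregates. WT and KO were 1 line each, so genotype and line cannot be told apart. For JB4/EI7HZ2 and the stages made from it the study describes 3 independent experiments, and p-values measure the spread between such experiments, not between lines. In bulk RNA, fewer cells of a type and less RNA per cell cannot be told apart.

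SmcHD1 is a non-canonical SMC (structural maintenance of chromosomes) protein known for its part in silencing the inactive X chromosome, clustered protocadherins and some imprinted genes. In the neural tube, Sonic hedgehog from the notochord and floor plate specifies ventral progenitors, while BMP and Wnt proteins from the roof plate act on dorsal ones. Levels along this axis are marked by their own transcription factors, and Hox genes mark position along the hindbrain and spinal cord.

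Smchd1, at chr17:71693834-71824683 (mm9, the build of all gene positions here), was 22.3, 21.9 and 21.8 FPKM in WT replicates 1, 2 and 3 and 3.80, 4.03 and 4.40 in KO replicates 1, 2 and 3. Its transcript was lower in every KO library and still detected, by -2.18 ± 0.13 (SE) on the log2(FPKM + 1) scale (adjusted p = 2.15e-10). All differences below are KO minus WT on this scale, which understates the change of genes near 0 FPKM. They come from limma fitted to all 24 libraries, with p-values adjusted over the 11834 tested genes and a gene called at an adjusted p under 0.05. Early neural genes were on in both groups: Sox1 was 24.9 to 33.0 FPKM in WT and 46.2 to 46.9 in KO, and Pax6 25.99 to 54.6 and 50.3 to 70.5. Pou5f1, a pluripotency factor, was still at 31.6 to 47.9 FPKM in WT and 39.8 to 65.2 in KO (not called), against 1240 to 1532 FPKM in mESCs of both genotypes.

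At day 9, 984 genes were called (8.32% of those tested), 367 higher in KO (3.1%) and 617 lower (5.21%), and the median difference of all tested genes was -0.00238. The difference was at least 1 in size in 128 of the higher and 262 of the lower genes. The values of WT and KO did not overlap in 3955 genes (33.4%), among them 359 of those called higher and 591 of those called lower. The share called was 14.6% at a mean of 1 to 5 FPKM and 3.38% above 100 FPKM. With libraries scaled to the same sum of FPKM the median moved to -0.103, and the higher genes made up 22.44% of the calls in place of 37.3%. With the day 9 libraries fitted alone, 1515 of the 11834 tested genes were called, 602 higher and 913 lower. Counts given below from that fit stand against these larger numbers.

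**Figure D1:**
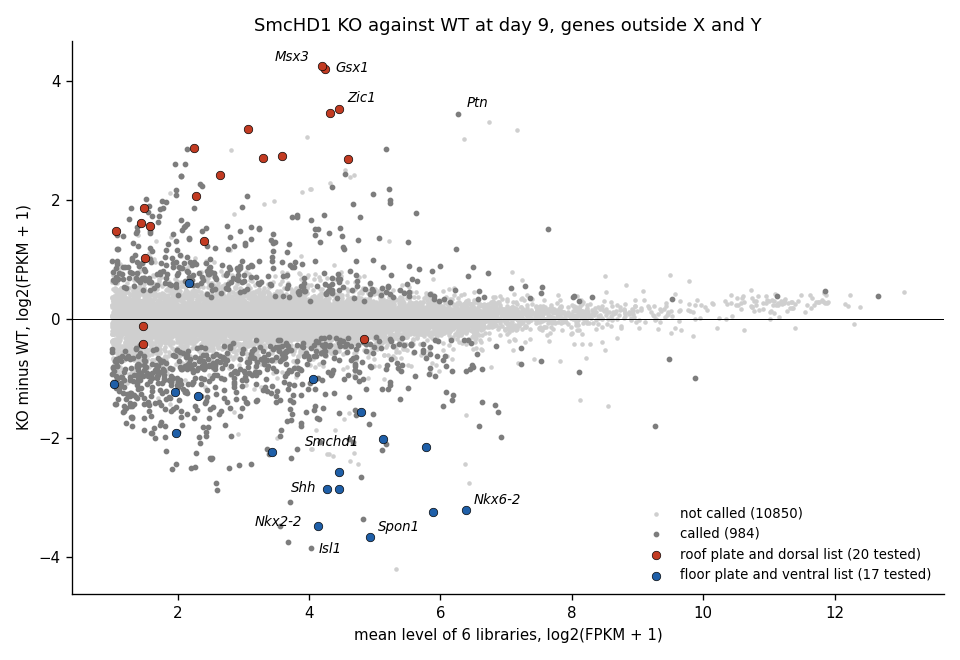
Mean level over the 6 day 9 libraries (x axis, log2(FPKM + 1)) against KO minus WT (y axis, same scale), with 1 point for each tested gene. The members of the roof plate and dorsal list (red) lie mostly above 0, with 17 of 20 called higher, and those of the floor plate and ventral list (blue) mostly below it, with 16 of 17 called lower.

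The largest changes were in dorsal and ventral patterning genes. The 12 largest rises were in Msx3, Gsx1, Zic1, Pax3, Ptn, Lbx1, Rspo1, Wnt8b, Fzd10, Pax7, Wnt1 and Zic2, with differences of 2.69 to 4.25. Among the 12 largest falls were Isl1, Col3a1, Spon1, Nkx2-2, Rgs4, Nkx6-1, Nkx6-2, Cxcl12, Tbx20, Foxa2 and Shh, with differences of -3.84 to -2.85. They were taken from the 245 higher and 406 lower called genes that had a mean of at least 5 FPKM in the higher group and no overlap between the groups.

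**Figure D2:**
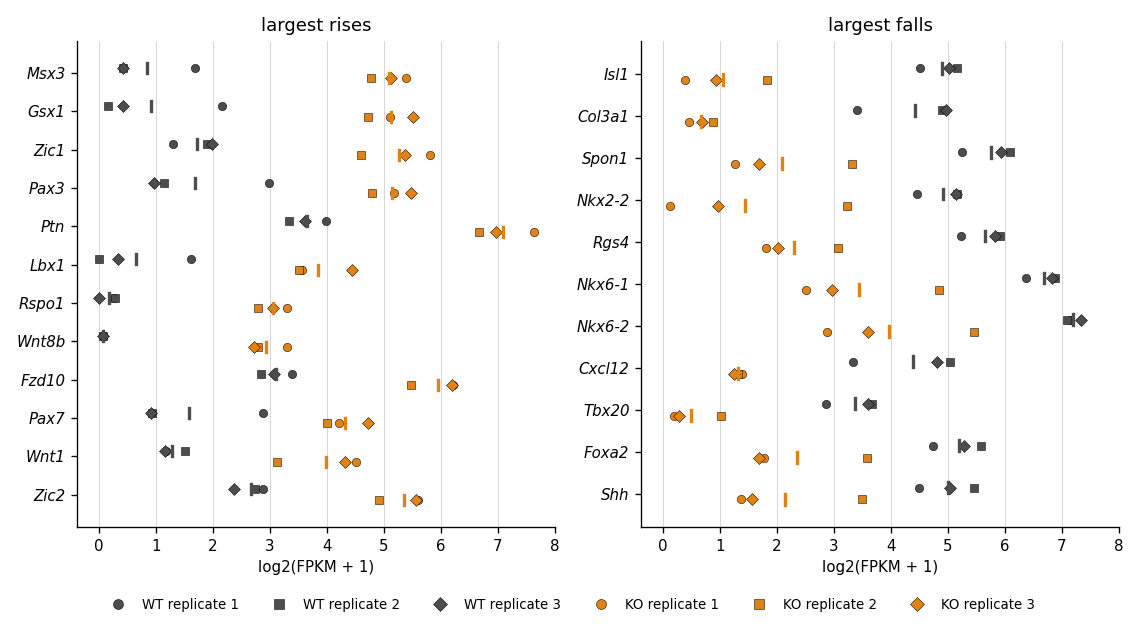
Levels of 23 of the 24 genes with the largest changes in each day 9 library (x axis, log2(FPKM + 1)), with 1 marker for each replicate of WT and KO and a bar at each group mean. The groups do not overlap for any of these genes, which was a condition of their choice. WT replicate 1 lies towards the KO libraries for Gsx1, Pax3, Lbx1 and Pax7, and KO replicate 2 is the KO library nearest to WT for Shh, Foxa2, Nkx2-2, Nkx6-1 and Nkx6-2.

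Of the 6 libraries, WT replicate 1 and KO replicate 2 stood nearest to the other group. Each library was placed on a scale where 0 is the mean of the WT libraries and 1 that of the KO libraries, itself left out. As the median over the called genes, which were called with these same libraries, WT replicate 1 lay at 0.221. The other WT libraries lay at -0.187 and -0.0803. KO replicate 2 lay at 0.867, against 1.17 and 0.993 for the other KO libraries. Across genes, Pearson's r of the log2 levels was 0.978 to 0.984 within groups and 0.948 to 0.974 between them, as a description. Without WT replicate 1, 904 genes were called, and without KO replicate 2, 799. The counts without WT replicates 2 and 3 were 579 and 646, and without KO replicates 1 and 3 they were 607 and 750.

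Dorsal genes rose. Of 28 roof plate and dorsal neural tube factors in the files 20 were tested, 17 were called higher and 0 lower, and the median difference was 2.24 against -0.00238 over all tested genes. Of the tested members, 10 reached a mean of 1 FPKM in KO only and so entered the test through the group where they were high. With no filter on low values, 23 of 28 were higher and the median was 1.53. Summed over the list, the level was 37.9 to 102 FPKM in the WT libraries and 243 to 348 in the KO libraries. Without WT replicate 1, 17 were higher, and without KO replicate 2, 17.

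Msx3, a homeobox gene of the dorsal neural tube at chr7:147232056-147234987, was 2.22, 0.337 and 0.343 FPKM in WT and 40.7, 26.4 and 33.8 in KO. It was near 0 in WT replicates 2 and 3 and rose by 4.25 ± 0.23 (adjusted p = 1.19e-10). Gsx1, a homeobox gene of dorsal interneuron progenitors, was 3.49, 0.112 and 0.341 FPKM in WT and 33.6, 25.5 and 44.7 in KO (difference 4.20 ± 0.35, adjusted p = 2.87e-08). The Zic genes, zinc finger factors of dorsal neural tissue, rose together. Zic1, at chr9:91255183-91260637, was 1.47, 2.73 and 2.95 FPKM in WT and 54.9, 23.4 and 40.1 in KO (difference 3.53 ± 0.25, adjusted p = 2.92e-09). Zic2 was 4.20 to 6.38 FPKM in WT and 29.1 to 47.6 in KO, Zic5 0.563 to 1.18 and 6.28 to 13.3 and Zic4 0.0441 to 0.135 and 1.08 to 2.96. KO replicate 2 was the lowest KO library for all 4 Zic genes and was still above every WT library.

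The paired box genes Pax3 and Pax7 mark dorsal progenitors. Pax3 was 6.91, 1.196 and 0.956 FPKM in WT and 35.1, 26.6 and 43.6 in KO (difference 3.45 ± 0.36, adjusted p = 8.77e-07). Pax7 was 6.39, 0.904 and 0.877 FPKM in WT and 17.6, 15.0 and 25.4 in KO (difference 2.74 ± 0.36, adjusted p = 2.19e-05). For both genes WT replicate 1 was far above the other WT libraries, and Pax7 was not called when the day 9 libraries were fitted alone. Lbx1, a homeobox gene of dorsal interneurons, was 2.07, 0 and 0.270 FPKM in WT and 10.9, 10.4 and 20.8 in KO (difference 3.19 ± 0.35, adjusted p = 1.59e-06). Msx1, Msx2, Gdf10 and Bmp6, a pair of homeobox factors and a pair of BMP-type ligands of the roof plate, were under 1 FPKM in every WT library and at 1.83 to 4.78 in the KO libraries. Olig3, a factor of dorsal progenitors, was 2.02, 2.07 and 1.53 FPKM in WT and 11.0, 3.39 and 5.84 in KO (difference 1.31 ± 0.34, adjusted p = 0.0174), a call lost without WT replicate 3 or without KO replicate 1 (adjusted p up to 0.155). The members not called were Lmx1a (difference -0.42), a roof plate factor, and Dbx1 (-0.33) and Dbx2 (-0.11), which mark progenitors in the middle of the axis.

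Ventral genes fell. Of 20 floor plate and ventral neural factors 17 were tested, 16 were called lower and 0 higher, with a median of -2.15, and 15 of the tested members had a mean of at least 1 FPKM in both groups. With no filter 17 of 20 were lower. Summed over the list, the level was 545 to 754 FPKM in WT and 71.0 to 214 in KO. Without KO replicate 2, 16 were lower, and without WT replicate 1, 16. When the day 9 libraries were fitted alone, 8 were called lower, and Shh, Foxa2, Nkx2-2, Nkx2-9, Nkx6-1, Nkx6-2, Olig2 and Ntn1 were not, with adjusted p of 0.0544 to 0.134 and larger standard errors.

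Shh, the ligand made by the floor plate, was 21.5, 43.0 and 31.9 FPKM in WT and 1.60, 10.3 and 1.97 in KO (difference -2.85 ± 0.47, adjusted p = 0.000297). Its position overlaps the entry 9530036O11Rik. Foxa2, the floor plate factor at chr2:147868614-147872705, was 25.7, 46.7 and 38.1 FPKM in WT and 2.42, 11.0 and 2.22 in KO (difference -2.85 ± 0.40, adjusted p = 4.91e-05), and it also belongs to the endoderm list. Foxa1, the secreted floor plate protein Spon1, the axon guidance cue Ntn1 (netrin) and the guidance ligands Slit1, Slit2 and Slit3 were lower too. Spon1 was 36.9, 66.8 and 60.0 FPKM in WT and 1.41, 8.92 and 2.22 in KO, and Ntn1 74.5, 96.5 and 90.5 and 9.66, 33.2 and 20.1. KO replicate 2 was the highest KO library for Shh, Foxa2, Foxa1, Spon1, Ntn1 and Slit3, and it stayed below every WT library.

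The Nkx homeobox genes of ventral progenitors had large falls. Nkx2-2, in an entry at chr2:147003282-147157417 that overlaps Nkx2-2as, was 20.9, 34.6 and 34.1 FPKM in WT and 0.0972, 8.41 and 0.947 in KO (difference -3.47 ± 0.49, adjusted p = 5.08e-05). Nkx6-1 was 81.3, 117 and 113 FPKM in WT and 4.73, 27.6 and 6.83 in KO (difference -3.25 ± 0.54, adjusted p = 0.000436). Nkx6-2, which overlaps Inpp5a, was 139.9, 135 and 161 FPKM in WT and 6.35, 42.8 and 11.1 in KO, and Nkx2-9 30.9, 34.3 and 37.8 and 1.87, 17.7 and 2.95. The KO libraries spread widely in all 4 genes, and all lay below WT. Olig2, the factor of motor neuron progenitors, was 3.22, 6.36 and 8.55 FPKM in WT and 0.964, 2.91 and 1.65 in KO (difference -1.29 ± 0.31, adjusted p = 0.0102). Lmx1b (difference 0.60, adjusted p = 0.210) was the tested member that was not called.

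The promoters of 2 dorsal genes that rose and 2 ventral or motor neuron genes that fell are shown so that their sequences can be set beside the expression. Each runs from 250 bases before to 50 bases after the gene start (RefSeq, GRCm38.p6), 5′ to 3′ on the strand of the gene, with CpG dinucleotides in capitals.
Msx3, chr7:140049039-140049338, minus strand: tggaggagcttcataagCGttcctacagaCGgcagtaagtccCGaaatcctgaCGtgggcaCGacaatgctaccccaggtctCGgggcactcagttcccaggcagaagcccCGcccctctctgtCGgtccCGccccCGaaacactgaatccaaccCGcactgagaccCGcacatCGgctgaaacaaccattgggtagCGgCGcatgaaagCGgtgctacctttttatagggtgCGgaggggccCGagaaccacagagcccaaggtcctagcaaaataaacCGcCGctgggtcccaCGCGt
Zic1, chr9:91365719-91366018, minus strand: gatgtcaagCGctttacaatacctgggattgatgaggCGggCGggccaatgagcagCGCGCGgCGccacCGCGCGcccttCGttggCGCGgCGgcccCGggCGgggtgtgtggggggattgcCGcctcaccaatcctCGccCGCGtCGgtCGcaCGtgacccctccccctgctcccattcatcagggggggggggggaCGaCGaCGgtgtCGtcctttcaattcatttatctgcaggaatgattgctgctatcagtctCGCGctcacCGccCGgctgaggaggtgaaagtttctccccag
Nkx2-2, chr2:147186353-147186652, minus strand: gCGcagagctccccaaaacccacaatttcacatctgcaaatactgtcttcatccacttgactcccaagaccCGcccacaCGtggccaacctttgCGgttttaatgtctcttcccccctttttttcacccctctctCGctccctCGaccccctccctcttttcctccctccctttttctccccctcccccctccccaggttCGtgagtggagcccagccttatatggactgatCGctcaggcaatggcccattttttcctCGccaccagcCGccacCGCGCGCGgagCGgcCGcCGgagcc
Isl1, chr13:116309639-116309938, minus strand: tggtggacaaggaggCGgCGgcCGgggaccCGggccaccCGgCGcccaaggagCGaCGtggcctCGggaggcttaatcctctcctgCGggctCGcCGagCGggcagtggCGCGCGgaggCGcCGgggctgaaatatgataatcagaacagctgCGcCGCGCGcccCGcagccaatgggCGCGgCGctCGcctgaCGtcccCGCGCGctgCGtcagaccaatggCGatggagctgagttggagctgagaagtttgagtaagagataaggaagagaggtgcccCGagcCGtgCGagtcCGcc
These windows hold 22, 31, 17 and 37 CpGs. A window was found for 16 of 20 tested dorsal members, 12 of 17 tested ventral members and 8324 of all tested genes, with a median of 20.5, 24.5 and 22 CpGs. The GLI motif core GGGTGGTC and the TCF/LEF motif CTTTGAT, sought on both strands, were in 0 of the dorsal and 0 of the ventral windows, against 0.913% and 2.31% of all windows. Since so few of all windows held either motif, 0 was likely in sets of 16 and 12 windows, and no conclusion is drawn. GLI factors act in the Hedgehog pathway and TCF/LEF factors in the Wnt pathway.

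Within the Hedgehog list (15 of 18 tested) 5 genes were lower and 4 higher, with a median of 0.14, and of -0.02 with no filter. The ligand Shh and targets of the pathway were lower. Gli1, a target and effector, was 16.9, 19.6 and 20.02 FPKM in WT and 3.22, 9.44 and 5.39 in KO (difference -1.59 ± 0.30, adjusted p = 0.000894). Ptch1, the receptor and a target, was 54.4, 61.9 and 67.7 FPKM in WT and 18.4, 37.6 and 27.3 in KO (difference -1.17 ± 0.24, adjusted p = 0.00226), and the decoy receptor gene Hhip had a difference of -1.25. KO replicate 2 was again the highest KO library for Gli1 and Ptch1. Higher were the surface proteins Gas1, Boc and Cdon, which bind Shh, and Gli3, which can form a repressor. Gas1 was 17.3, 8.32 and 12.6 FPKM in WT and 62.8, 50.7 and 65.2 in KO (difference 2.19 ± 0.19, adjusted p = 5.69e-08), Boc 6.42 to 16.1 and 34.1 to 42.4 and Gli3 5.501 to 9.96 and 22.6 to 25.2. The signal transducer Smo (0.40, adjusted p = 0.0868), Gli2 (0.38) and Sufu (-0.02) were not called.

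Of 34 tested Wnt pathway genes (44 in the table) 12 were higher and 4 lower (2 without WT replicate 2, WT replicate 3 or KO replicate 1), with a median of 0.06 that ran from -0.03 to 0.12 over the alternatives. Wnt1, Rspo1, Rspo3 and Wnt8b are also members of the dorsal or forebrain lists, and 6 tested members had a mean of at least 1 FPKM in KO only. Among ligands, Wnt1 was 1.26, 1.86 and 1.24 FPKM in WT and 21.9, 7.77 and 18.99 in KO (difference 2.71 ± 0.34, adjusted p = 9.14e-06), Wnt3 0.542 to 1.29 and 5.003 to 8.94 and Wnt7b 3.53 to 12.6 and 31.8 to 43.2. Wnt8b, a ligand of the dorsal forebrain, was 0.0540, 0.0553 and 0.0562 FPKM in WT and 8.82, 5.92 and 5.57 in KO (difference 2.86 ± 0.17, adjusted p = 2.15e-10). The R-spondins, secreted enhancers of Wnt signalling, rose from low levels. Rspo1 was 0.210, 0.215 and 0 FPKM in WT and 8.91, 5.92 and 7.26 in KO, Rspo2 0.164 to 0.224 and 4.81 to 9.67 and Rspo3 0.560 to 1.06 and 4.87 to 9.98. The receptor Fzd10 was 9.47, 6.17 and 7.43 FPKM in WT and 72.9, 43.3 and 71.9 in KO (difference 2.85 ± 0.25, adjusted p = 5.55e-08). Among target genes Axin2 (4.75 to 6.31 FPKM in WT and 11.4 to 17.1 in KO) and Lef1 (2.58 to 4.04 and 6.54 to 7.96) were higher, while Sp5 (-0.20) and Nkd1 (-0.12) were not called. The secreted antagonist Sfrp1 fell, at 184, 184 and 195 FPKM in WT and 32.2, 90.5 and 34.7 in KO, and its relative Sfrp2 rose, at 84.6 to 139.7 and 247 to 330.3.

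**Figure D3:**
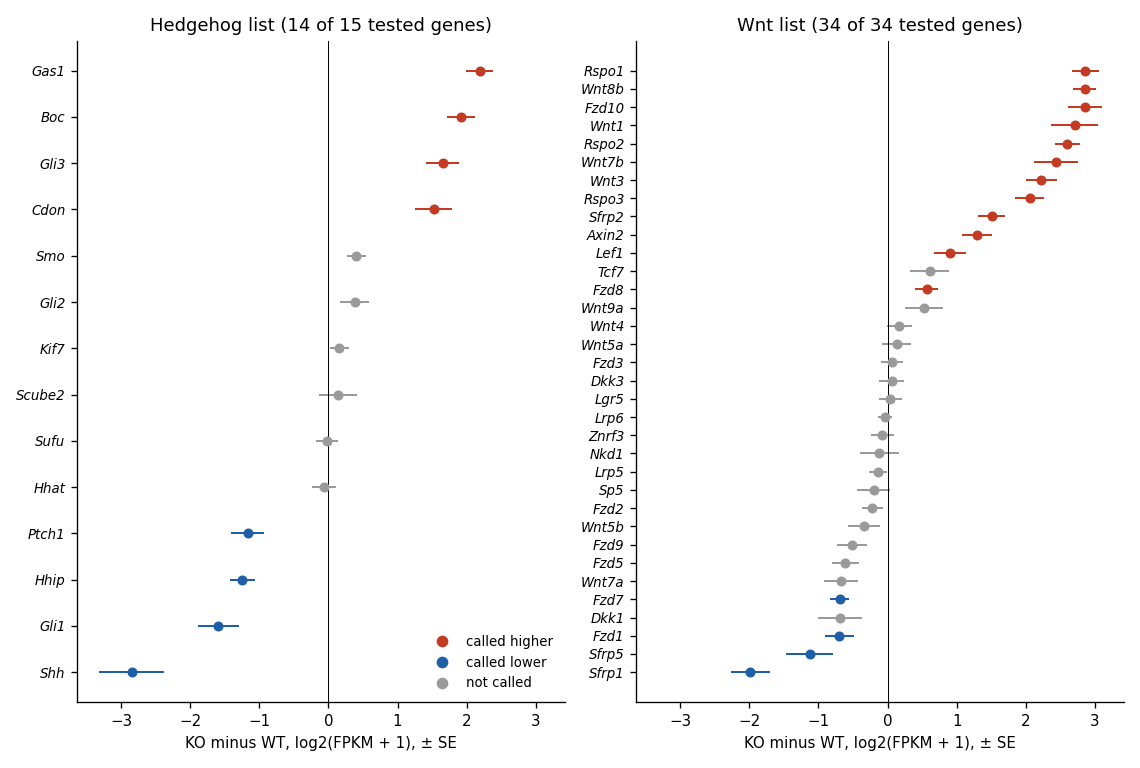
KO minus WT (x axis, log2(FPKM + 1), bars ± SE) for 14 of the 15 tested genes of the Hedgehog list and the 34 of the Wnt list. Shh and its targets lie lowest and Gas1, Boc, Gli3 and Cdon highest among the former, and Rspo1, Wnt8b, Fzd10 and Wnt1 lie highest and Sfrp1 lowest among the latter.

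The BMP and TGF-beta list (31 of 37 tested) had 6 genes higher and 4 lower, and the FGF list (19 of 26 tested) 3 higher and 0 lower. With the day 9 libraries fitted alone, 5 FGF genes were higher and 2 lower. Of the tested BMP and TGF-beta genes 5 had a mean of at least 1 FPKM in WT only and 2 in KO only, and with no filter 7 of 37 were higher and 4 lower. Beside Gdf10 and Bmp6, the BMP receptor Bmpr1b (2.70 to 3.17 FPKM in WT and 5.37 to 7.30 in KO) and the antagonist Fst (6.57 to 7.27 and 15.3 to 18.0) were higher. The Nodal antagonists Lefty1 and Lefty2 were higher as well, Lefty2 at 2.92 to 3.26 and 5.67 to 12.1, and the call of Lefty1 was lost with a pseudocount of 0.1 and without WT replicate 3 or KO replicate 1 (adjusted p up to 0.167). The ligands Bmp2, Bmp5, Tgfb1 and Tgfb2 were lower, with 1 of the 4 called without WT replicate 2 and 2 without KO replicate 3, and Bmp4 (-0.85, adjusted p = 0.202) was not called. The ligand Fgf15 (9.34 to 11.3 FPKM in WT and 22.4 to 43.1 in KO) and the receptor Fgfr2 (12.8 to 16.5 and 32.6 to 43.8) rose, while the FGF effector Etv4 lost its call in 5 of the 6 fits that left out 1 library.

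In the retinoic acid list (16 of 18 tested) 4 genes were lower and 1 higher, and without WT replicate 2, WT replicate 3, KO replicate 1 or KO replicate 3 2 were lower, as they were with a pseudocount of 0.1 or the day 9 libraries fitted alone. Aldh1a2, which makes retinoic acid, was 2.08, 6.12 and 4.502 FPKM in WT and 0.348, 0.596 and 0.377 in KO (difference -1.78 ± 0.38, adjusted p = 0.00344). The receptor Rarb (1.33 to 6.27 FPKM in WT and 0.907 to 1.54 in KO) and the retinol carrier Rbp4 (2.12 to 10.1 and 1.23 to 2.17) were lower too, and Rbp4 lost its call in 6 alternatives (adjusted p up to 0.217). Cyp26c1, which degrades retinoic acid, was 38.1, 11.7 and 20.03 FPKM in WT and 68.5, 71.0 and 82.7 in KO (difference 1.78 ± 0.28, adjusted p = 0.000158). WT replicate 1 was the highest WT library for Cyp26c1, and the call was lost when the day 9 libraries were fitted alone.

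Motor neuron genes fell. Of 17 listed genes 14 were tested, 13 were lower and 0 higher, with a median of -1.62. A mean of 1 FPKM was reached in WT only by 7 of the tested genes, and with no filter 13 of 17 were lower. Without WT replicate 1, 14 were lower, and without KO replicate 2, 12. Isl1, a LIM homeobox factor of motor and sensory neurons at chr13:117088478-117099896, was 21.8, 34.6 and 31.5 FPKM in WT and 0.309, 2.57 and 0.920 in KO (difference -3.84 ± 0.24, adjusted p = 5.69e-10), the largest fall among the named genes. Tbx20, a factor of hindbrain motor neurons, was 6.29, 11.7 and 11.1 FPKM in WT and 0.146, 1.02 and 0.218 in KO (difference -2.88 ± 0.21, adjusted p = 5.03e-09). The LIM factors Lhx3 and Lhx4, the acetylcholine-making enzyme Chat and its vesicular transporter Slc18a3 were lower in every KO library. Slc18a3 was 7.98, 12.8 and 11.3 FPKM in WT and 0.649, 1.19 and 1.32 in KO, and it overlaps Chat, so their reads may be mixed. Tbx3 (-0.88, adjusted p = 0.0522) was not called.

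Among neuronal genes the calls were mostly lower. Of 29 tested early postmitotic neuron genes (31 in the table) 13 were lower and 1, the netrin receptor gene Dcc, was higher, with a median of -0.58. Gap43, a growth cone protein, was 118, 164 and 162 FPKM in WT and 35.8, 37.7 and 51.6 in KO (difference -1.80 ± 0.26, adjusted p = 6.01e-05). The neurofilament Nefl was 151 to 191 FPKM in WT and 50.7 to 68.7 in KO, and the axonal adhesion protein Cntn2 14.9 to 26.2 and 2.02 to 4.16. Tubb3 (-0.66, adjusted p = 0.452), Mapt (-0.32) and Dpysl3 (0.47) were not called. Of 18 tested proneural factors 7 were lower, led by Neurod4 (16.8 to 19.9 FPKM in WT and 5.501 to 8.27 in KO), the somatostatin receptor gene Sstr2, Neurod1 and Insm1, and 1, Olig3, was higher, while Neurog2 (-0.32) was not called. With a pseudocount of 0.1, 1 of the proneural factors was lower, and without WT replicate 1, WT replicate 2 or KO replicate 1 4 were. In the Notch list 4 of 21 genes were lower, the effectors Heyl and Hey1, the ligand Dll4 and the receptor Notch2, which lost its call without WT replicate 2 or WT replicate 3 (adjusted p up to 0.0818), while Hes1 (-0.09) and Hes5 (0.21) were not called. With the day 9 libraries fitted alone, 7 Notch genes were lower and 1 was higher.

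Markers of neural progenitors went both ways. Of 22 tested neural progenitor genes 5 were higher and 2 lower, with a median of 0.21. Sox21, Pax6, Sox1, Zbtb16 and Hes3 were the higher ones, and with a pseudocount of 0.1 the count called higher was 0, as it was without WT replicate 2 or WT replicate 3, and it was 1 without KO replicate 2 or KO replicate 3. With the day 9 libraries fitted alone, 7 progenitor genes were higher and 5 lower, and scaled to the same sum of FPKM 2 were higher. Sox2 (0.33, adjusted p = 0.154) and Nes (-0.39) were not called. Slc1a3, a glutamate transporter of radial glia, was 24.4, 28.1 and 26.4 FPKM in WT and 6.14, 12.2 and 8.59 in KO (difference -1.50 ± 0.25, adjusted p = 0.000277), and the adhesion molecule Ncam1 23.4 to 27.8 and 10.1 to 15.6.

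Along the head-to-tail axis, forebrain genes were among those called higher. Of 25 forebrain and eye field factors 12 were tested, 8 were higher and 1 lower, with a median of 1.29, and 13 were too low to be tested, Six3, Rax and Hesx1 among them. Of those tested 4 had a mean of at least 1 FPKM in KO only and 1 in WT only, and with no filter 11 of 25 were higher and 2 lower, with a median of 0.24. Otx2, a forebrain and midbrain factor, was 6.19, 12.5 and 6.92 FPKM in WT and 30.1, 22.8 and 18.3 in KO (difference 1.41 ± 0.27, adjusted p = 0.00106), a call lost with a pseudocount of 0.1 (adjusted p = 0.0931). With a pseudocount of 0.1, 5 of the list were higher, and without WT replicate 2, WT replicate 3 or KO replicate 2 6 were. The cortical factors Emx2 (0 to 0.220 FPKM in WT and 3.16 to 3.96 in KO) and Fezf2 (0.334 to 0.815 and 2.59 to 4.95) rose from near 0, and Otx1, Irx1 and Lhx2 were higher. Foxd1 was 5.46, 11.0 and 9.17 FPKM in WT and 0.477, 1.71 and 0.516 in KO, the called fall of this list. Of 25 tested midbrain and hindbrain factors 7 were higher and 3 lower. Irx2 was 10.6 to 19.2 FPKM in WT and 39.5 to 72.0 in KO, Gbx2 3.83 to 7.12 and 15.8 to 22.7 and En2 0.268 to 0.976 and 3.11 to 5.44, all factors of the midbrain and hindbrain region. Gata2 and Gata3, factors of ventral interneurons, were lower, at 7.49 to 9.46 FPKM in WT and 1.89 to 2.43 in KO and at 2.01 to 3.18 and 0.258 to 0.641, while En1 (0.09), Pax2 (-0.12) and Egr2 (0.93, adjusted p = 0.287) were not called.

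Of 39 listed Hox genes 14 were tested, 6 were lower and 2 higher, with a median of -0.73. Lower were Hoxb1, Hoxb3, Hoxd3, Hoxa5, Hoxc6 and Hoxb9. Hoxb1 was 19.7, 25.6 and 26.2 FPKM in WT and 4.88, 10.8 and 9.22 in KO (difference -1.47 ± 0.31, adjusted p = 0.00290). Hoxd3, which overlaps Hoxd4, was 2.09, 6.56 and 8.53 FPKM in WT and 0, 0.325 and 0.0720 in KO, and Hoxb9 1.44, 6.60 and 6.72 and 0, 0.422 and 0. Hoxc6 was 0.616, 3.91 and 4.24 FPKM in WT and was listed at 0 in all 3 KO libraries. WT replicate 1 was the lowest WT library for Hoxd3, Hoxb9 and Hoxc6. Hoxb7 and Hoxb8, the neighbours of Hoxb9 on chromosome 11, went the other way. Hoxb8 was 0.701, 3.30 and 3.14 FPKM in WT and 10.4, 10.4 and 16.2 in KO (difference 2.07 ± 0.31, adjusted p = 9.19e-05), and Hoxb7 0.803 to 1.34 and 4.12 to 7.65. With a pseudocount of 0.1, Hoxb8 kept its call and Hoxb7 did not. Hoxa2, Hoxa3, Hoxb2, Hoxb4 and Hoxc4 were not called, and 7 Hox genes were listed at 0 in all 6 libraries. With no filter, 11 of 32 were lower and 2 higher, and 5 of the tested genes had a mean of at least 1 FPKM in WT only.

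In the mesoderm, endoderm, vascular and epithelium lists the calls were lower in KO. In the mesoderm list 6 of 13 tested genes were lower (median -0.87), in the endoderm list 8 of 16 (-0.83), in the vascular, blood and cardiac list 8 of 14 (-1.002), and in the epithelium and surface ectoderm list 7 of 13 (-0.79). These are the tested parts of 28, 30, 22 and 26 genes, and 6, 3, 9 and 0 of those tested had a mean of at least 1 FPKM in WT only. With no filter 10 of 28, 10 of 28, 9 of 22 and 8 of 25 were lower. Their summed levels in WT and KO were 43.9 to 114 and 32.9 to 36.3 FPKM for mesoderm, 415 to 522 and 389.8 to 457 for endoderm, 32.7 to 90.0 and 16.7 to 20.2 for vascular, blood and cardiac genes and 261 to 377 and 117 to 196 for epithelium. The sums overlapped between WT and KO for endoderm, where Alb and Apoa4 were listed at 0 in all 6 libraries. The part of these cell types in the other differences was not tested. Among the called endoderm genes, Foxa1 and Foxa2 are also in the ventral list, Rbp4 in the retinoic acid list and Cldn6 in the epithelium list. With the day 9 libraries fitted alone, 3, 4, 4 and 4 genes of the mesoderm, endoderm, vascular and epithelium lists were lower, and 1 endoderm gene was higher. Without WT replicate 1 the counts in the same order were 7, 8, 9 and 7, without WT replicate 2 3, 5, 4 and 4, without WT replicate 3 4, 5, 4 and 5, without KO replicate 2 6, 8, 5 and 4 and without KO replicate 3 3, 6, 5 and 8.

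Among the WT libraries, replicate 1 had the lowest summed level of the mesoderm, endoderm, vascular and epithelium lists. The same held for the collagen and matrix list. Col3a1, a fibrillar collagen, was 9.55, 28.8 and 30.5 FPKM in WT and 0.368, 0.851 and 0.616 in KO (difference -3.75 ± 0.65, adjusted p = 0.000668), and Col1a1 3.96, 12.3 and 9.69 and 0.599, 0.976 and 0.691. The chemokine Cxcl12 was 9.10, 31.8 and 27.1 FPKM in WT and 1.63, 1.49 and 1.39 in KO (difference -3.07 ± 0.29, adjusted p = 2.41e-07). Hbb-bh1, an embryonic haemoglobin with close paralogs, was 2.94, 9.46 and 8.32 FPKM in WT and 0, 0.431 and 0.477 in KO. In all 4 WT replicate 1 was the lowest WT library and above every KO library. T (brachyury), a mesoderm and notochord factor, was 12.2, 30.2 and 21.0 FPKM in WT and 3.80, 12.2 and 2.42 in KO (difference -1.80 ± 0.44, adjusted p = 0.0122), where KO replicate 2 was as high as WT replicate 1, and its call was lost in 5 alternatives (adjusted p up to 0.162). The keratins Krt8 and Krt18 of simple epithelia were 79.0 to 114 FPKM in WT and 32.5 to 51.5 in KO and 74.7 to 105 and 31.7 to 45.4. In the collagen and matrix list 13 of 35 tested genes were lower and 1, Loxl1, higher (3 with the day 9 libraries fitted alone). Of those tested 7 had a mean of at least 1 FPKM in WT only, and with no filter 16 of 48 were lower. In the neural crest and placode list 4 of 17 were higher, Pax3, Tfap2a, Tfap2b and Sox8, and 4 lower, Ngfr and Ets1 among them (2 without WT replicate 2, WT replicate 3, KO replicate 1 or KO replicate 2), while Sox10 (-0.05) was not called.

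Protocadherins and imprinted genes, at which SmcHD1 is known to act, were taken on their own. Of 21 Pcdhb genes, cell adhesion genes in 1 array on chromosome 18, 7 were tested and 7 were higher, by 0.49 to 1.55. Of those tested 5 had a mean of at least 1 FPKM in KO only, and with no filter 17 of 21 were higher and 0 lower. Pcdhb11 was 0.201, 0.411 and 0.366 FPKM in WT and 2.47, 2.93 and 3.25 in KO (difference 1.55 ± 0.17, adjusted p = 1.76e-06), and Pcdhb22 1.61, 1.90 and 1.18 and 4.76, 5.15 and 6.51. KO replicate 3 was the highest library for all 7. Without it 5 were higher, and so were 5 without WT replicate 3 or KO replicate 2. The count was also 5 with the day 9 libraries fitted alone or with libraries scaled to the same sum of FPKM. With a pseudocount of 0.1, 4 were higher. These genes resemble each other in sequence and lie within 1 bundle of overlapping Pcdha, Pcdhb and Pcdhg entries, so reads may have been split between them and they are not independent.

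Of 40 tested imprinted genes (55 in the table) 7 were lower and 1 was higher, with a median of -0.11, and without WT replicate 2 or WT replicate 3 3 and 4 were lower. With the day 9 libraries fitted alone, 12 were lower and 5 higher. Igf2, a growth factor, was 1.47, 3.02 and 2.56 FPKM in WT and 13.7, 7.05 and 6.57 in KO (difference 1.56 ± 0.21, adjusted p = 1.99e-05). H19, the non-coding RNA next to it, went the other way, at 562, 1166 and 1137 FPKM in WT and 300.3, 178 and 330.2 in KO (difference -1.80 ± 0.38, adjusted p = 0.00369). Igf2 overlaps Igf2as, and WT replicate 1 was the lowest WT library for both genes. Airn, the non-coding RNA of the Igf2r domain, was 6.18, 10.4 and 11.5 FPKM in WT and 3.27, 2.17 and 2.37 in KO, overlaps Igf2r and lost its call in 3 alternatives (adjusted p up to 0.268). Nnat, which overlaps Blcap, was 1219 to 1260 FPKM in WT and 471 to 802 in KO and lost its call without KO replicate 1 (adjusted p = 0.103), and Peg3, Cobl, Dlk1 and Nap1l5 were also lower. Cdkn1c (0.08), Peg10 (0.23) and Mest (0.64, adjusted p = 0.560) were not called.

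Among 28 tested genes of SMC complexes, SmcHD1 partners and CTCF, Smchd1 was the only call, and 0 were called among 33 Polycomb and DNA methylation enzymes, 32 proliferation genes and 6 germline genes that DNA methylation silences. At an unadjusted p under 0.05 limma gave 5, 2 and 2 of these, against 2227 of all tested genes (18.8%). When the day 9 libraries were fitted alone 3, 4 and 0 were called higher and none lower. That fit called 602 of all 11834 tested genes higher and 913 lower. Uhrf1, a partner of DNA methylation, was 113 to 119 FPKM in WT and 127 to 129.7 in KO (difference 0.16 ± 0.26, adjusted p = 0.846), and Rrm2, an enzyme of nucleotide synthesis, 181 to 199 and 186 to 190.1 (difference -0.00212). Of 29 p53 targets and cell cycle inhibitors 4 were lower, and 9 when the day 9 libraries were fitted alone. Cdkn1a, the inhibitor p21, was 41.4, 50.3 and 47.3 FPKM in WT and 13.9, 13.1 and 17.0 in KO (difference -1.60 ± 0.22, adjusted p = 3.25e-05), Plk2, Phlda3 and Ccng1 were lower too, and Mdm2 (-0.26) and Bax (-0.18) were not called. Of 21 integrated stress response genes 0 were called (6 at an unadjusted p under 0.05 by limma, against 18.8% of all tested genes), at a median of -0.55, and 14 were lower and 1 was higher when the day 9 libraries were fitted alone. Ddit4, the stress gene with the highest level, was 273 to 292 FPKM in WT and 147 to 197 in KO. In the glycolysis and hypoxia list 1 of 29 genes, Aldoc, was lower and 1, Ldhb, higher, and both calls were lost in 5 alternatives each. With the day 9 libraries fitted alone, 10 genes of this list were lower and 1 was higher. Of 30 tested pluripotency genes 5 were higher and 0 lower, and Zic2, Otx2, Lefty1 and Lefty2 among them belong to other lists as well. Without KO replicate 1, 3 of them were higher, with a pseudocount of 0.1 2 and with the day 9 libraries fitted alone 8.

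**Figure D4:**
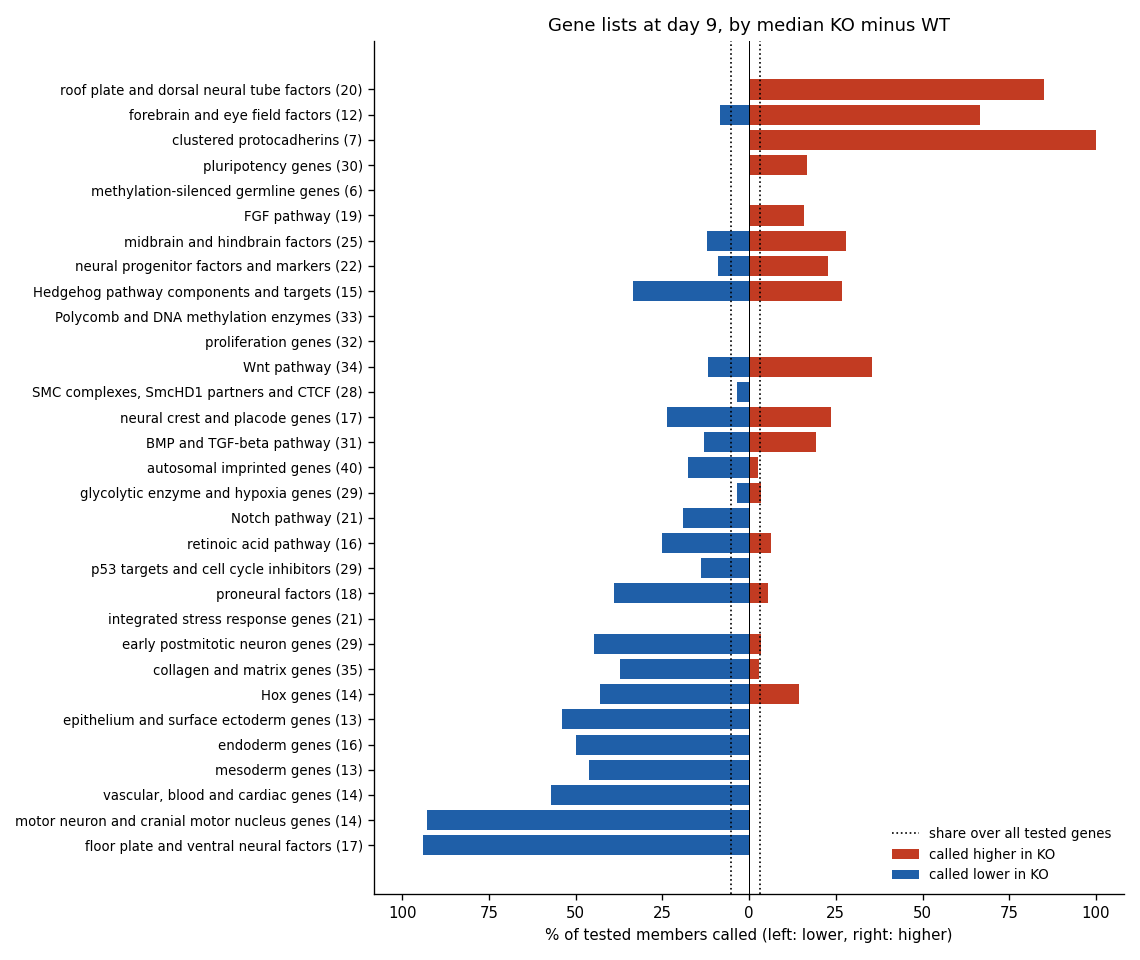
Share of tested members called lower (to the left) or higher (to the right) in KO for the 31 gene lists, with the number tested, against the shares over all tested genes as dotted lines (3.1% higher and 5.21% lower). The dorsal list reaches 85% higher, the 7 protocadherins 100%, the ventral list 94.1% lower and the motor neuron list 92.9% lower.

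By position, the distal part of chromosome 3 and the whole of chromosome 16 had medians below 0. From 140 Mb on chromosome 3, 23 of 45 tested genes were lower and 3 higher, with a median of -0.54. On chromosome 16, 36 of 375 were lower and 7 higher, with a median of -0.16. The other 11414 genes had a median of 0.00253, with 357 higher and 558 lower. The medians of the chromosome 3 and chromosome 16 genes were -0.65 and -0.14 at day 7, -0.62 and -0.09 in mESCs and -0.19 and 0 in NSCs. Boc, Gap43 and Olig2 lie on chromosome 16. Among windows of 10 Mb with at least 10 tested genes, the first of chromosome 15 had a lower median (-0.24, with 6 of 19 tested genes lower and 0 higher) than any window of chromosome 16 (lowest -0.19), and the window of chromosome 3 from 20 Mb had the highest (0.33, over 10 tested genes, with 2 higher and 1 lower). These regions and windows were chosen from their medians, so they carry no test. Without the genes of chromosome 16 and of chromosome 3 from 140 Mb, 896 were called, and 15 of 16 tested ventral factors were lower.

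The KO effect at day 9 was compared with the effect at the other stages by testing the difference between the effects. It differed from that at day 7 in 280 genes (2.37%), from that in mESCs in 399 (3.37%) and from that in NSCs in 788 (6.66%). At day 7 itself 457 of the same genes were called (3.86%), and 219 were called the same way on both days, which is 22.3% of the day 9 calls and 47.9% of the day 7 calls. For mESCs, where 53 of the 11834 tested genes were called, these shares were 2.13% and 39.6%. For NSCs, where 674 were called, they were 6.71% and 9.79%. Of all tested genes 8.32% were called either way at day 9. Called the opposite way were 12 genes at day 7 and 1 in mESCs, and in NSCs 39, beside 66 called the same way. Of the genes called at day 9, 226 had an effect that differed from day 7.

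Some patterning genes had already separated at day 7. Shh, Foxa2, Nkx6-2 and Wnt1 had day 7 differences of -3.66, -4.10, -3.17 and 3.00, all called there, and no difference between the days was called for them. Foxa2 at day 7 was 15.1 to 37.8 FPKM in WT and 0.344 to 1.40 in KO. Others were called at day 9 only and differed between the days by the test. Gsx1, Lbx1, Isl1, Spon1, Ptn and Rgs4 had day 7 differences of 0.41, -0.03, -0.19, 0.62, 0.29 and 0.00412. Ptn, a heparin-binding growth factor, was 14.8, 9.06 and 11.3 FPKM in WT and 196, 101 and 124 in KO at day 9, and Rgs4, a regulator of G proteins, 36.6, 59.1 and 55.8 and 2.49, 7.37 and 3.05. For T the difference was -5.26 at day 7, where it was 52.1 to 132 FPKM in WT and 0.719 to 2.03 in KO, and smaller at day 9. Rspo3 changed sign, from -2.46 at day 7 to 2.06 at day 9 (adjusted p of the difference 5.99e-09).

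**Figure D5:**
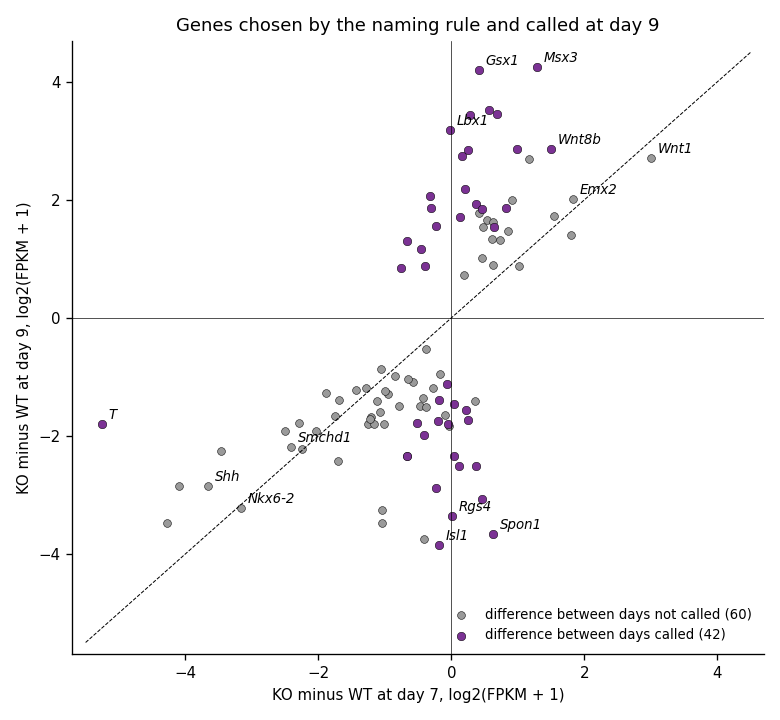
KO minus WT at day 7 (x axis) against day 9 (y axis), both log2(FPKM + 1), for the 102 called genes among those named by rule. Purple points (42) are genes whose effects differed between the days by the test. Wnt1, Shh and Nkx6-2 have similar values on both axes, Gsx1, Isl1 and Spon1 lie within 1 of 0 at day 7, and T is further from 0 at day 7 than at day 9.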

How the data were processed

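RNA-seq libraries were prepared with a stranded mRNA kit. Per the labels and the study's methods, the authors trimmed reads with Trim Galore 0.6.6, aligned them to mm9 with TopHat2 2.1.1, left out reads on X, and deposited FPKM values per gene from Cufflinks and Cuffdiff (library scaling and strand of counting not given in the sources used here). The table's 12 columns of other samples were not used.

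The deposited FPKM values were analysed as log2(FPKM + 1) with limma 3.58.1 in R 4.3.3, in 1 fit of 8 groups of 3 libraries (trend and robust settings, two-sided), with Benjamini-Hochberg adjustment. Differences between the KO effects of 2 stages were tested as contrasts of the same fit. The code was tested on simulated data. Absolute depth is not known. Of 31400 low values, 95.26% were whole multiples (within 0.05) of the lowest value above 0 of the gene, taken as 1 read. That lowest value counts as whole by construction, and the relative read numbers were estimated from the same genes. They were 0.983 to 1.115 for the day 9 libraries.

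The genes named first were the 12 that rose most and the 12 that fell most among called genes with a mean of at least 5 FPKM in the higher group and no overlap between the groups. In each of 31 lists the 4 called members with the largest change were named, or the 2 tested members with the highest mean where none was called. Other members were named after their values were seen. Members and lists were chosen with earlier results of these data known, and a gene can be in several lists. Of the entries, 127 join several symbols, and entries that overlap another gene may hold its reads. Alternatives were another pseudocount, other filters, the day 9 libraries alone, rescaled libraries, a replicate block, limma without trend and robust settings, and leaving out each library. Some genes that this rule or these lists hold are not reported here.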

Additional observations from a re-analysis of the deposited data

Results flagged for a closer look

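By limma's test of the difference between the KO effects at 2 stages, the effect at day 9 differed from that at day 7 in 280 genes, from that in mESCs in 399 and from that in NSCs in 788. Among the genes named by rule, 43 differed between day 9 and day 7, and the values below are the KO effect at day 9 minus that at day 7 on the log2(FPKM + 1) scale.

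Dorsal factors had a more positive effect at day 9, by 2.97 for Msx3, 3.79 for Gsx1, 2.97 for Zic1, 2.77 for Pax3, 3.21 for Lbx1, 2.58 for Pax7, 1.98 for Olig3 and 1.04 for Gdf10. The same held for the Wnt pathway genes Rspo1 (1.88), Wnt8b (1.35) and Fzd10 (2.60), and for Ptn (3.16), Gas1 (1.98), Boc (1.55), Gbx2 (1.58), Hoxb8 (2.38), Etv4 (1.59), Tfap2b (2.16), Tfap2a (1.39), Lefty1 (1.27), Lefty2 (1.63), Rpl10l (1.31), Pcdhb11 (0.91) and Igf2 (1.78).

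Motor neuron and neuronal genes had a more negative effect at day 9, by -3.65 for Isl1, -2.64 for Tbx20, -2.62 for Slc18a3, -2.37 for Cntn2, -1.75 for Gap43, -1.78 for Nefl, -1.49 for Syt4 and -1.21 for Neurod4. So had Spon1 (-4.29), Foxd1 (-1.67), Rgs4 (-3.37), Cxcl12 (-3.53), Heyl (-1.58), Dll4 (-1.05), Hbb-bh1 (-2.87), Hba-x (-1.99), Tal1 (-1.26) and Apoa1 (-1.54, a fitted value, since Apoa1 was listed at 0 in all KO libraries at day 9). For T the value was 3.46, since its fall was larger at day 7.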

How the results depend on the processing

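Of the 984 calls at day 9 (367 higher, 617 lower), a pseudocount of 0.1 gave 635 (241 and 394), a filter at a mean of 5 FPKM, which tests fewer genes, 486 (183 and 303), and the day 9 libraries fitted alone 1515 (602 higher). Leaving out 1 library gave 579 to 904 in all, 221 to 308 higher and 356 to 596 lower. The genes whose effect differed from day 7 (280) numbered 93 with the pseudocount of 0.1, 122 with the filter at 5 FPKM and 197 to 320 without 1 library. For mESCs (399) the counts were 197, 197 and 258 to 453. For NSCs (788) they were 452 with the filter at 5 FPKM, 1219 with the replicate block and 520 to 802 without 1 library. Libraries scaled to the same sum of FPKM gave 1105 calls at day 9. The replicate numbers did not pair the samples (correlations of deviations 0.016, 0.034 and -0.111). A replicate block for these numbers gave 1310 calls, sharing 800 genes with the 984, and a block within stage over 24 libraries, chosen after seeing the data, gave 1362. The cause of these shifts was not tested.

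Of 102 called genes named by rule, 70 were called under every alternative that tested them. The others lost the call under at least 1, with 9 doing so with a pseudocount of 0.1, 12 with the day 9 libraries fitted alone, 15 with the replicate block and 14 without 1 library. Signs turned only in genes that were not called: Ezh2 was at -0.0225 when scaled to the same sum, and Zfp42 ran from -0.0237 to 0.485 and Rrm2 from -0.032 to 0.0391 over the fits without 1 library. With 3 libraries per group, the exact permutation test of a single gene cannot go below 0.1, so calls rest on the spread pooled over genes and groups.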
